A study of Mus musculus with 12 samples.

Results

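The MYC-MAX-MXD network of mouse hematopoietic progenitors was followed through 10 genes, taken by name from a table of 53465 genes: Myc, Mycn, Mycl, Max, Mxd1, Mxd4, Mxi1, Mnt, Mlx and Fbxw7. All 10 were found in the table, and all 10 passed the filter on low counts in every comparison. RNA-seq was done on LSKs (Lin- Sca1+ c-Kit+ cells, the bone marrow fraction that holds hematopoietic stem cells and multipotent progenitors) in 4 groups of 3 libraries. The groups were Tespa1+/+ littermates and Tespa1-/- mice, each untreated or 9 days after 150 mg/kg 5-fluorouracil (5-FU), a drug that kills cycling blood cells and so drives the remaining stem cells to rebuild the marrow. Per the methods of the study, the knockout was the B6.129S-Tespa1tm1Smoc strain, backcrossed to C57BL/6 for more than 6 generations, and the mice were males of 8 to 10 weeks. No Cre driver or cell type restriction is named for the deletion, so the LSKs also came from a Tespa1-/- marrow. Whether each library came from a separate mouse is not given, so the p-values may measure technical spread only. The study asked what the loss of Tespa1 does to stem cells under stress, with c-Myc as one of its subjects.

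MYC proteins bind DNA only as pairs with MAX, mostly at the E-box CACGTG, and there they raise the transcription of genes for ribosome building, metabolism and cell cycle entry. MXD1, MXI1, MXD4 and MNT compete for the same MAX and recruit repressors to the same sites, MLX pairs with the glucose-sensing Mondo proteins, and FBXW7 marks MYC proteins for destruction. In hematopoietic stem cells, MYC activity is known for its link to the choice between staying in the niche and differentiating, and Fbxw7 for its role in quiescence. Transcript levels say nothing of the amount or stability of these proteins.

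The sequences shown are the primers of the study's Myc mRNA assay, which mark where in the gene it reads, and the upstream regions of the antagonists on which most of the results turn. The Myc primers of the study both lie in exon 2 of the gene (GRCm38, forward primer at chr15:61987767-61987786 and reverse primer at chr15:61987922-61987943), and enclose 177 bases, whereas the RNA-seq counts cover the whole gene.
Myc forward primer: cccaagggaagacgatgacg
Myc reverse primer: gctgagaaaccgctccacatac
RefSeq gene starts (GRCm38.p6) were taken from a list of promoters, which held 9 of the 10 genes but had no entry for Myc. The 250 bases upstream of each start were searched for the E-box CACGTG, which is its own reverse complement, and for the variant CACGCG on both strands (CGCGTG on the other strand), which do not overlap each other in these windows. Both windows below end at the gene start, and capitals mark CACGTG.
Mnt, chr11:74830674-74830923, plus strand: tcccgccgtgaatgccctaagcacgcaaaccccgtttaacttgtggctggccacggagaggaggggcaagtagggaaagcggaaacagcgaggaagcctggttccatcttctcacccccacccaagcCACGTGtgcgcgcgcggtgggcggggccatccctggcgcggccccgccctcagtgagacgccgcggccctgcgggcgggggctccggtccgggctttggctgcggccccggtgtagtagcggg
Mxd1, chr6:86669160-86669409, minus strand: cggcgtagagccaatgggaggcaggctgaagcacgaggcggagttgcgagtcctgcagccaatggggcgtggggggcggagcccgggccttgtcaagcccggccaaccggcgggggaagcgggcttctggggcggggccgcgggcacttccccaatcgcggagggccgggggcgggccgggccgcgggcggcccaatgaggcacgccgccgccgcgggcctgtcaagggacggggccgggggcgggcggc
CACGTG was present in the windows of Mnt (123 bases before the start), Mlx (40 bases before) and Mxd4 (219 bases before), and CACGCG in that of Mycl (20 bases before). Neither motif was in the windows of Mxd1, Mycn or Max, or in any of the 3 windows each of Mxi1 and Fbxw7. For Max, Mycl and the Mxi1 window at chr19:53310256-53310505, the bases just after the start were not found in an annotated transcript of the gene. These starts are therefore less certain. Over 32851 mouse promoters of the same length, 6.02% held CACGTG and 7.62% held CACGCG. A match is only a match of letters, and no binding was measured.

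The libraries held between 22118154 and 28275079 counts, so that 3 counts, the floor used here, were 0.106 to 0.136 CPM (counts scaled to library size, with TMM factors). Tespa1 transcripts were reduced in Tespa1-/- LSKs but still counted, at 34.5 to 35.0 CPM against 43.0 to 49.8 in untreated mice and at 17.3 to 20.8 against 47.2 to 57.5 after 5-FU. The counts are per gene and do not show which exons they came from, so the genotypes are used as labelled, and untreated Tespa1-/- LSKs are not cells without Tespa1 transcript. A pair of groups stood apart in ways that touch the results below. In untreated Tespa1+/+ LSKs, the summed CPM of 20 immediate-early genes was 11760 to 12290, against 8305 to 8472 in untreated Tespa1-/-, 7929 to 8000 in Tespa1+/+ after 5-FU and 6622 to 6882 in Tespa1-/- after 5-FU, and the summed FPKM, which shows how counts spread over short and long genes, was 469286 to 479879 against 516428 to 551517 elsewhere. In Tespa1-/- LSKs after 5-FU, 14 neutrophil genes summed to 1156 to 1165 CPM against 21.4 to 49.2 in the other 3 groups, where Cd177 was at 0 in all 9 libraries. There 11 erythroid genes summed to 789 to 853 CPM against 165 to 319, 20 G2/M genes to 5088 to 5208 CPM against 3481 to 3756, and 12 LSK identity genes to 1053 to 1165 CPM against 1570 to 1924. Of these 12, 8 were lower and none higher than in treated Tespa1+/+ LSKs, beside 5.78% and 7.34% of all genes. Against untreated Tespa1-/- LSKs, 4 were higher (Slamf1, Mecom, Procr and Gata2) and 3 lower (Cd34, Flt3 and Cd48), beside 10.7% and 8.64% of all genes. With 5-FU, 8 of 9 tested B-cell genes rose and 1 fell in Tespa1+/+ LSKs (median log2 fold change 2.12), beside 3.77% and 4.18% of all genes. In Tespa1-/-, 8 of 10 rose (2.64), beside 10.7% of all genes. Their summed CPM was 345 to 355 and 255 to 266.5 in untreated Tespa1+/+ and Tespa1-/-, and 539 to 568 and 580.1 to 602.5 in treated LSKs. Per the methods, sorting followed depletion of mature cells, with CD11b, Gr-1, Ter-119, B220 and CD3e in the lineage stain. In such bulk libraries, fewer cells of a type and less RNA per cell cannot be told apart.

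Read per length, as CPM per kb of gene, the highest mean over the 4 groups was that of Myc at 18.5 CPM per kb, followed by Mnt at 14.4 and by Max at 10.4 CPM per kb. Mxd1 (8.52), Mxi1 (7.62), Mxd4 (5.35) and Mycn (5.02 CPM per kb) lay below, then Mlx (3.66) and Fbxw7 (3.05 CPM per kb). Mycl was the lowest, at 0.414 CPM per kb. The order was not the same in each group. Mnt was at 18.6 and Myc at 17.1 CPM per kb in untreated Tespa1+/+ LSKs, where their libraries overlapped, and Mycn was at 3.34 and 3.13 CPM per kb in untreated Tespa1+/+ and Tespa1-/- but at 7.49 and 6.11 CPM per kb in treated LSKs.

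By edgeR (quasi-likelihood F-test, p-values adjusted over all genes after Benjamini and Hochberg), 3 of the 10 genes passed an adjusted p of 0.05 between the genotypes in untreated LSKs (Myc, Mxd1 and Mnt), where 5.23% of all genes tested did. After 5-FU, 1 of 10 passed between the genotypes (Mxd1), against 13.1% of all genes. From untreated to 5-FU, 2 of 10 passed in Tespa1+/+ LSKs (Mycn and Mnt), against 7.95% of all genes, and 3 of 10 in Tespa1-/- LSKs (Myc, Mxd1 and Mxi1), against 19.4%. The genotype difference itself changed with 5-FU for 2 of 10 (Mxd1 and Mnt), against 5.01% of all genes. The groups did not overlap for 3, 4, 3 and 5 of the 10 genes in the first 4 of these comparisons, in this order, where 25.6%, 33%, 28.5% and 38.5% of all genes did not. The median log2 fold change over the 10 genes was 0.08, 0.16, -0.08, 0.02 and 0.06 in the 5 comparisons, beside 0.01, -0.01, 0.01, -0.01 and -0.02 over all genes. With a fold change of at least 1.5 asked for beside the adjusted p, 0, 0, 1, 0 and 1 of the 10 passed, against 2.51%, 6.98%, 4.43%, 10.1% and 3.21% of all genes. With that fold change and an unadjusted p below 0.05, 0 passed in untreated LSKs and 1 in each of the other comparisons (Mycl, Mycn, Mycn and Mxd1), against 6.74%, 11.7%, 9.88%, 14.4% and 10.4% of all genes. These comparisons share libraries, since each group enters at least 2 of them.

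**Figure D1:**
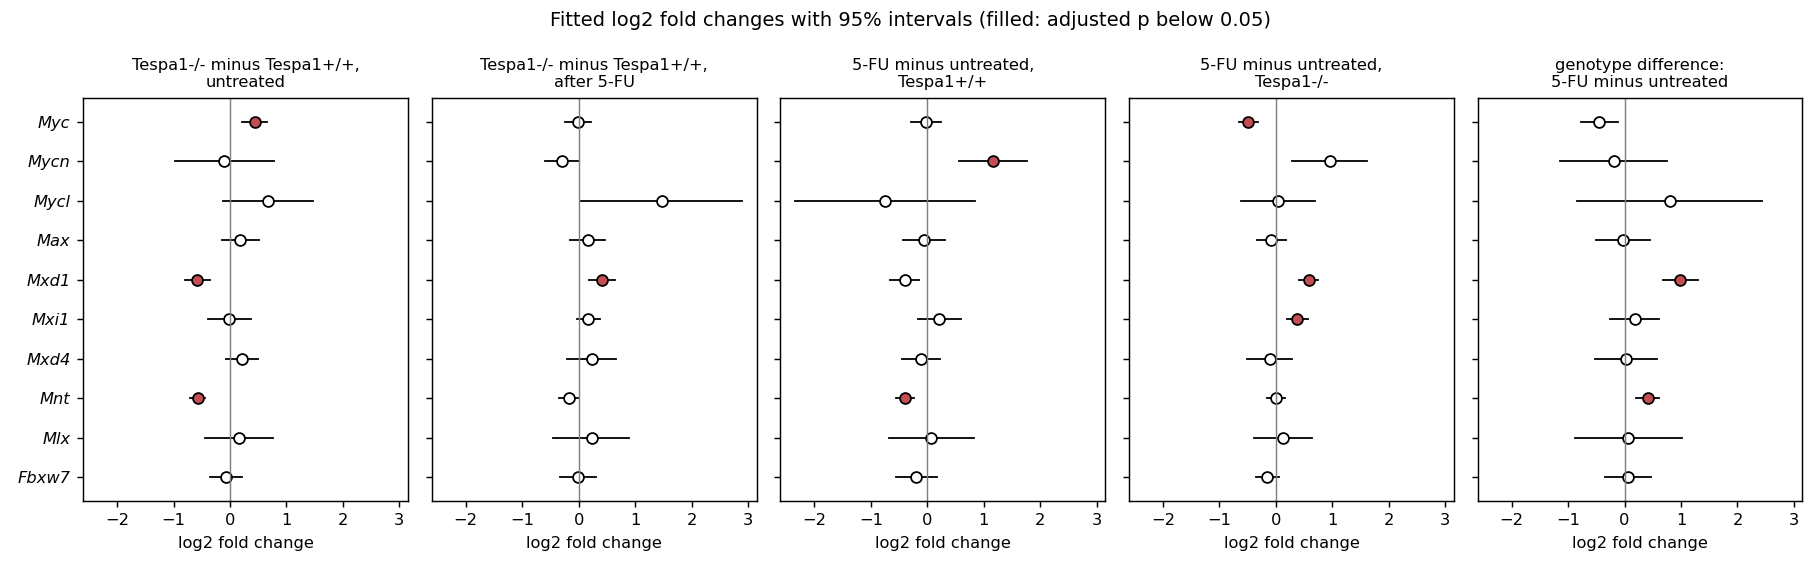
Log2 fold changes (x axis) of the 10 network genes (y axis) in the 5 comparisons, from edgeR; points are estimates, lines their 95% intervals, and filled points passed an adjusted p of 0.05. Mxd1 lies at -0.58 in untreated LSKs and at 0.42 after 5-FU, while Myc lies at 0.44 and -0.02.

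Among the paralogs, Myc transcripts were higher in Tespa1-/- than in Tespa1+/+ LSKs when untreated and did not differ detectably after 5-FU. Myc (ENSMUSG00000022346, GRCm38 chr15:61985391-61990374) encodes c-MYC, the general growth regulator of the family. In untreated LSKs it was at 131, 133 and 164 CPM in Tespa1+/+ and at 185, 209 and 184 CPM in Tespa1-/- libraries. All 3 Tespa1-/- libraries lay above all 3 Tespa1+/+ libraries. The log2 fold change was 0.44 (SE 0.10, adjusted p = 0.0363 in edgeR's quasi-likelihood test), or 1.35-fold with a 95% interval of 1.16 to 1.57. The call held without Tespa1+/+ library 3 and was lost without any one of the other 5 libraries (adjusted p from 0.0874 to 0.158), and also with offsets for gene length and GC content (0.41, adjusted p = 0.0603). While Myc was higher in untreated Tespa1-/- LSKs, the immediate-early genes, a class of rapid response genes to which Myc itself is often counted, went the other way: 17 of the 20 listed were lower and none was higher (19 were lower in DESeq2), where 3.59% of all genes were lower and 1.64% higher. The part of that shift in the Myc result was not tested.

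After 5-FU, Myc was at 129, 163 and 127 CPM in Tespa1+/+ and at 129, 136 and 152 CPM in Tespa1-/- LSKs. The ranges lay over each other. The log2 fold change between genotypes was -0.02 (SE 0.11, adjusted p = 0.949), with a 95% interval from -0.25 to 0.22, so that a change of Myc mRNA beyond 0.838-fold or 1.17-fold lay outside the interval. Within Tespa1-/- LSKs, Myc fell by 0.49 from untreated to 5-FU (log2, SE 0.08, adjusted p = 0.00275), and this call held in all 6 fits that each left out 1 library. In Tespa1+/+ the same contrast was -0.03 (SE 0.12, adjusted p = 0.932, 95% interval -0.29 to 0.24). The difference between these responses did not pass the test (-0.45, SE 0.16, adjusted p = 0.13).

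Mycn, which encodes N-MYC, the paralog that can stand in for c-MYC in stem cells, was the gene of the network with the largest response to 5-FU that passed the test. It lies on chromosome 12 (ENSMUSG00000037169, chr12:12936093-12941914). It was at 22.8, 25.4 and 10.8 CPM in untreated Tespa1+/+ and at 44.8, 40.1 and 47.2 CPM in Tespa1+/+ LSKs after 5-FU. Untreated and treated libraries did not overlap, although the untreated ones differed more among themselves. The rise was 1.16 on the log2 scale (SE 0.27, adjusted p = 0.0299), or 2.24-fold with a 95% interval of 1.47 to 3.40. It failed the threshold without untreated library 1 (adjusted p = 0.051) or without any of the 3 treated libraries (0.0785 to 0.0978). The B-cell genes given above rose in the same comparison, and their part in the Mycn result was not tested. In Tespa1-/- LSKs, Mycn was at 27.3, 17.3 and 10.6 CPM untreated and at 35.3, 42.0 and 30.5 CPM after 5-FU. These groups, too, did not overlap. The contrast of 0.96 (SE 0.29) just missed the threshold in edgeR (adjusted p = 0.0517) and passed it in DESeq2 (0.00176) and without untreated Tespa1-/- library 1 (1.36, adjusted p = 0.00864). The response did not differ detectably between the genotypes (-0.19, 95% interval -1.15 to 0.76), and neither did the genotypes at either state (untreated -0.10, adjusted p = 0.929, and after 5-FU -0.30, adjusted p = 0.193). As a share of the summed CPM per kb of Myc, Mycn and Mycl, Mycn made up 7.35% to 20.8% in the 6 untreated and 21.6% to 33.9% in the 6 treated libraries.

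Mycl, the third paralog, known from dendritic cells, was counted 6 to 106 times per library. It was at 1.29, 0.231 and 2.15 CPM in Tespa1+/+ and at 3.87, 2.94 and 3.34 CPM in Tespa1-/- LSKs after 5-FU. All Tespa1-/- values were higher, but the contrast did not pass the test (1.47, SE 0.63, adjusted p = 0.172), and it ranged from 0.98 to 2.15 as single libraries were left out. In untreated LSKs the groups overlapped, at 1.54 to 2.67 CPM against 2.37 to 4.35 CPM.

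Max, the partner that MYC proteins need to bind DNA and that their antagonists share, showed no detectable contrast. Its 12 libraries ranged from 45.5 to 76.9 CPM, and groups next to each other in the order of their means overlapped. No contrast passed the test, with 95% intervals from -0.15 to 0.52 between the genotypes untreated and from -0.16 to 0.47 after 5-FU, and from -0.43 to 0.32 and -0.34 to 0.17 for 5-FU in Tespa1+/+ and Tespa1-/- LSKs.

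**Figure D2:**
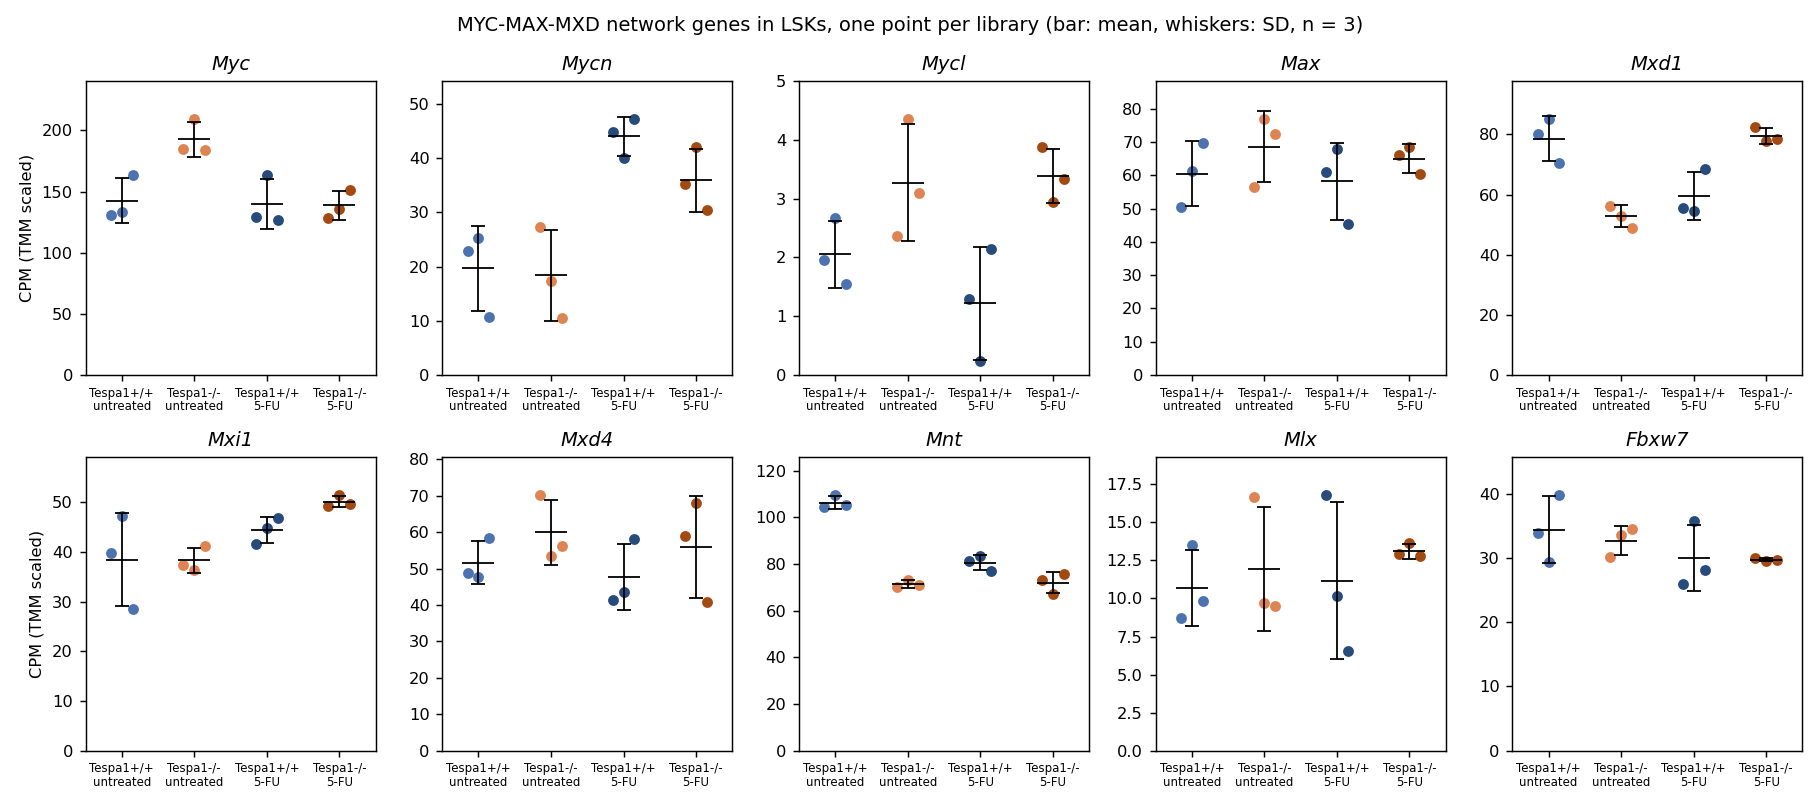
CPM (y axis, from 0) of each network gene in the 4 groups (x axis), with 1 point per library, a bar at the mean and whiskers of 1 SD (n = 3). Mxd1 shows a crossed pattern, high in untreated Tespa1+/+ and in treated Tespa1-/- LSKs, and Mnt a single high group, untreated Tespa1+/+ at 104 to 109.6 CPM.

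Of the 4 antagonists, Mxd1 and Mnt were called between the genotypes, and Mxd4 and Mxi1 were called in neither state. Mxd1 (ENSMUSG00000001156, chr6:86647042-86669161) encodes MXD1 or MAD1, known to rise as blood cells stop dividing and mature. In untreated LSKs it was at 80.3, 85.0 and 70.6 CPM in Tespa1+/+ and at 56.3, 53.0 and 49.0 CPM in Tespa1-/-. The Tespa1-/- libraries were all lower. Mxd1 fell by 0.58 on the log2 scale (SE 0.09, adjusted p = 0.0102), or to 0.671-fold. The call was lost without Tespa1-/- library 2 (adjusted p = 0.0607) or library 3 (0.0554). After 5-FU the order was turned: Mxd1 was at 55.4, 54.6 and 68.6 CPM in Tespa1+/+ and at 82.6, 77.7 and 78.5 CPM in Tespa1-/- LSKs. All 3 Tespa1-/- libraries were now above all Tespa1+/+ libraries. The rise was 0.42 (SE 0.10, adjusted p = 0.0252), or 1.33-fold, and without any library but Tespa1+/+ library 3 the call was lost (adjusted p from 0.0635 to 0.0874).

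The 2 genotype contrasts of Mxd1 differed from each other by 0.99 on the log2 scale (SE 0.14, adjusted p = 0.00117, 95% interval 0.69 to 1.30), and this held in all 12 fits that each left out 1 library. Seen by genotype, Mxd1 rose with 5-FU in Tespa1-/- LSKs by 0.58 (SE 0.07, adjusted p = 0.000849), in all 6 such fits. In Tespa1+/+ LSKs the contrast was -0.40 (SE 0.12), which missed the threshold in edgeR (adjusted p = 0.0711) but passed it in DESeq2 (0.0171), in a fit of all 12 libraries (0.0188), with offsets for length and GC content (0.0183) and without Tespa1+/+ 5-FU library 3 (0.0431). The treated Tespa1-/- libraries, in which Mxd1 was high, are those with the neutrophil, erythroid and G2/M transcripts given above, although the sort was for lineage-negative cells. The part of other cells in the Mxd1 result after 5-FU was not tested.

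Mnt (ENSMUSG00000000282, chr11:74830920-74845725) encodes the broadly expressed antagonist of the network, present in resting and dividing cells alike. In untreated LSKs it was at 104, 109.6 and 105 CPM in Tespa1+/+ and at 70.1, 73.2 and 71.0 CPM in Tespa1-/-. The gap between the groups was far wider than the spread within either. Mnt fell by 0.57 (SE 0.06, adjusted p = 0.00128), to 0.672-fold with a 95% interval of 0.611 to 0.740, and the call held in all 6 fits without 1 library. After 5-FU it was at 81.2, 83.5 and 77.2 CPM in Tespa1+/+ and at 73.0, 67.0 and 75.9 CPM in Tespa1-/- LSKs. These groups did not overlap either, yet the contrast of -0.17 (SE 0.08) missed the threshold (adjusted p = 0.216). From untreated to 5-FU, Mnt fell by 0.40 in Tespa1+/+ LSKs (SE 0.07, adjusted p = 0.0105, lost without Tespa1+/+ 5-FU library 3 at 0.0512). In Tespa1-/- the contrast was 0.00 (SE 0.07, 95% interval -0.16 to 0.16). The difference between the genotype contrasts was 0.41 (SE 0.09, adjusted p = 0.0218), and it was lost in 8 of 12 fits that left out 1 library (adjusted p from 0.0506 to 0.0794).

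Both Mnt and Mxd1 were thus lower in untreated Tespa1-/- than in untreated Tespa1+/+ LSKs, and the latter is the group with the high immediate-early sum and the low FPKM sum. With offsets for gene length and GC content, both calls were kept in untreated LSKs. The part of the immediate-early shift in them was not tested.

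Mxi1 (ENSMUSG00000025025, chr19:53310506-53375810), whose product MXI1 or MAD2 also represses at E-boxes, was at 37.3, 36.3 and 41.2 CPM in untreated and at 49.3, 51.4 and 49.6 CPM in treated Tespa1-/- LSKs. Every treated library was above every untreated one. Mxi1 rose by 0.38 (SE 0.08, adjusted p = 0.0112), a call lost without untreated Tespa1-/- library 2 (0.0566) or in a fit of all 12 libraries (0.0849). In Tespa1+/+ LSKs the contrast was 0.21 (SE 0.17, adjusted p = 0.546), where the untreated libraries ran from 28.5 to 47.2 CPM, and the responses did not differ detectably (0.18, 95% interval -0.25 to 0.61). After 5-FU the genotypes did not overlap (41.6 to 46.9 CPM in Tespa1+/+), but the contrast of 0.17 (SE 0.09) did not pass (adjusted p = 0.271). Mxd4, an antagonist known from maturing and resting cells, ranged from 40.8 to 70.2 CPM over all libraries. Its groups overlapped in all comparisons, and the fit gave intervals from -0.20 to 0.66 after 5-FU and from -0.07 to 0.50 in untreated LSKs, so that changes of this size could not be seen at this spread.

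Taken per length and summed, the antagonists Mxd1, Mxi1, Mxd4 and Mnt were compared with the paralogs Myc, Mycn and Mycl in each library, as a description of transcript levels. Their ratio was 2.02, 2.07 and 1.75 in untreated Tespa1+/+ and 1.21, 1.09 and 1.29 in untreated Tespa1-/- LSKs. The untreated Tespa1-/- libraries held the lowest ratios, up to a small overlap with treated Tespa1+/+ LSKs at 1.40, 1.28 and 1.53. In treated Tespa1-/- LSKs the ratio was 1.71, 1.56 and 1.504, which overlapped with treated Tespa1+/+. The antagonist sum itself was 38.2 to 43.0 CPM per kb in untreated Tespa1+/+ and 31.3 to 32.97 in untreated Tespa1-/- LSKs, and the paralog sum 19.9 to 21.8 and 24.5 to 28.8 CPM per kb. Both sums thus moved apart between the untreated genotypes, in opposite directions.

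**Figure D3:**
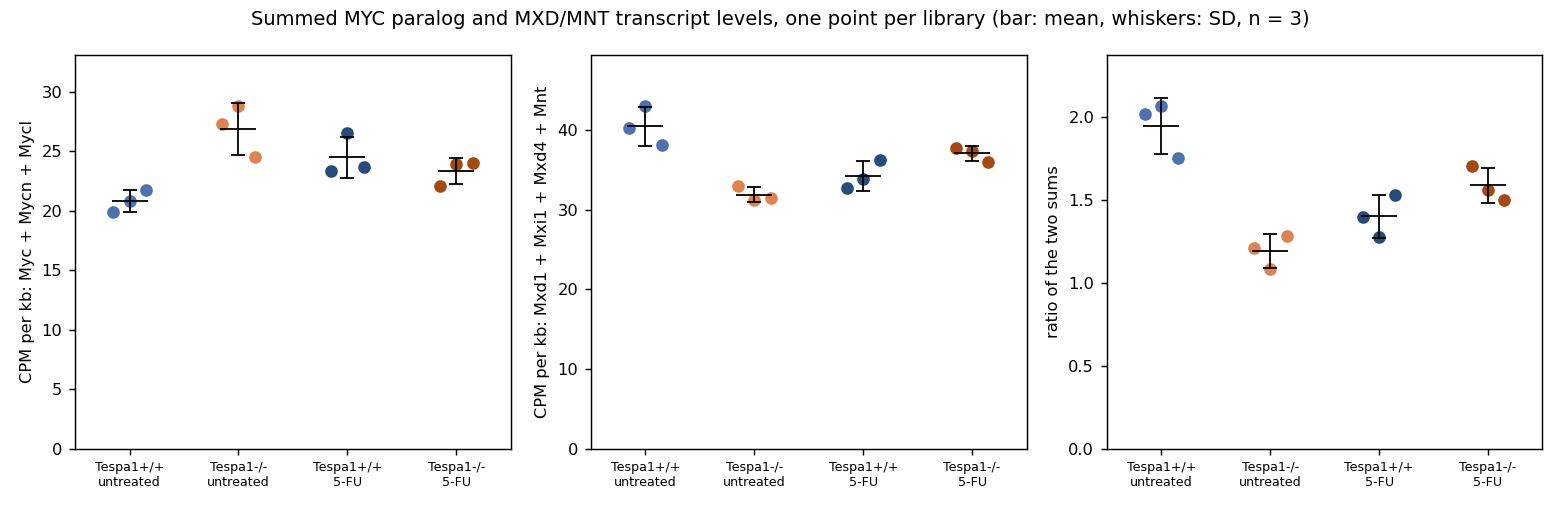
Summed CPM per kb of the MYC paralogs (left) and of Mxd1, Mxi1, Mxd4 and Mnt (middle), and the ratio of the antagonist sum to the paralog sum (right), in the 4 groups (x axis), with 1 point per library, a bar at the mean and whiskers of 1 SD (n = 3). Untreated Tespa1+/+ LSKs have the highest ratios (1.75 to 2.07) and untreated Tespa1-/- LSKs the lowest (1.09 to 1.29).

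Mlx, the MAX-like partner of the Mondo proteins and of some MXD proteins, was counted 159 to 431 times per library, at 6.57 to 16.8 CPM. None of its contrasts passed the test, with a 95% interval from -0.45 to 0.90 between the genotypes after 5-FU. Its exons overlap those of Psmc3ip on the opposite strand, which was counted 396 to 628 times, and since the use of strand in counting is not given, the Mlx values are uncertain. Among 6 genes that MLX and Mondo proteins are known to activate, Txnip, a brake on glucose uptake and the most widely used readout of this arm, did change. Txnip was at 79.3 to 84.7 CPM in untreated Tespa1+/+ and 115 to 119.5 CPM in untreated Tespa1-/- LSKs, then at 128 to 142 and 97.5 to 103.5 CPM after 5-FU. It rose by 0.52 (SE 0.06, adjusted p = 0.00201) in Tespa1-/- over Tespa1+/+ LSKs when untreated and fell by 0.43 (SE 0.07, adjusted p = 0.0025) after 5-FU, contrasts that differed by -0.95 (SE 0.08, adjusted p = 2.74e-05). Its relative Arrdc4 rose by 0.82 (SE 0.17, adjusted p = 0.0293) in untreated Tespa1-/- LSKs, while Hk2, the hexokinase, fell by 0.82 (SE 0.07, adjusted p = 0.000384). Klf10 fell after 5-FU by 0.59 (SE 0.10, adjusted p = 0.00362). In all, 2 of the 6 were higher and 1 lower in untreated Tespa1-/- LSKs, and 2 were lower and none higher after 5-FU, or 50% and 33.3% called beside 5.23% and 13.1% of all genes (median log2 fold change -0.07 and -0.30). With 5-FU, 1 of the 6 rose in Tespa1+/+, and in Tespa1-/- 1 rose and 3 fell, or 16.7% and 66.7% called beside 7.95% and 19.4% of all genes. With 6 genes, each is 16.7% of the list.

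Fbxw7, the F-box protein that recognizes phosphorylated MYC, was at 29.4 to 39.8 CPM in untreated Tespa1+/+, 30.1 to 34.5 in untreated Tespa1-/-, 25.9 to 35.7 in treated Tespa1+/+ and 29.5 to 29.9 CPM in treated Tespa1-/- LSKs. From untreated to treated Tespa1-/- LSKs the ranges did not overlap, but the contrast of -0.15 did not pass the test (adjusted p = 0.301), nor did any other. Between the genotypes the 95% interval was -0.36 to 0.22 in untreated LSKs and -0.33 to 0.30 after 5-FU. Of 27 further genes tested that add or remove the marks for MYC destruction, 2 were higher and 1 lower in Tespa1-/- after 5-FU, or 11.1% called beside 13.1% of all genes. In DESeq2, 4 were higher and 3 lower, beside 1627 higher and 1358 lower of 17239 genes. The higher ones were Aurka (1.03, SE 0.11, adjusted p = 0.000431) and Plk1 (0.92, SE 0.14, adjusted p = 0.00314), kinases known to stabilize MYC proteins and also to run mitosis. In the same comparison, 18 of the 20 G2/M genes, a list without Aurka and Plk1, rose, beside 7.34% of all genes. The lower one was Usp28 (-0.53, SE 0.15, adjusted p = 0.0486), the deubiquitinase that counters FBXW7, but no gene of the list was lower with offsets for length and GC content. Usp36, a nucleolar deubiquitinase of c-MYC, fell by 0.50 in untreated Tespa1-/- LSKs (SE 0.07, adjusted p = 0.00716) and was the only one of the 27 called there in edgeR, or 3.7% beside 5.23% of all genes (DESeq2 called 1 higher and 2 lower). It fell with 5-FU in Tespa1+/+ LSKs by 0.54 (SE 0.08, adjusted p = 0.00495), with Ppp2ca, a phosphatase subunit (-0.39, SE 0.06, adjusted p = 0.00637). With 5-FU in Tespa1-/- LSKs, 2 rose (Aurka and Plk1) and 4 fell (22.2% called beside 19.4% of all genes), among them Usp37 (-0.33, SE 0.06, adjusted p = 0.00551), which overlaps Cnot9 on the other strand, and Trim33 (-0.22, SE 0.06, adjusted p = 0.0311). With offsets for length and GC content, 4 rose and 8 fell, beside 1562 higher and 1836 lower of all genes. With a replicate block, 2 rose and 1 fell, beside 1593 higher and 1240 lower. Skp2, the substrate receptor of another ligase for MYC, was at 20.4 ± 5.77 against 13.2 ± 4.17 CPM untreated (SD, n = 3, adjusted p = 0.274) and at 20.2 ± 2.68 against 15.3 ± 2.38 CPM after 5-FU (adjusted p = 0.179). Huwe1, another MYC ligase, was 0.12 lower at both states, without passing the test (adjusted p = 0.109 each).

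Of the other proteins of the network, 19 of 20 listed genes were tested. Of these, 5.26% were called between the genotypes in untreated LSKs and 5.26% after 5-FU, and 0% and 10.5% with 5-FU in Tespa1+/+ and Tespa1-/-, beside 5.23%, 13.1%, 7.95% and 19.4% of all genes. The 10.5% were 2 lower genes. This count was 6 with offsets for length and GC content, beside 1836 lower of 17228 genes. Mga, a very large MAX partner that represses germline genes, fell by 0.33 with 5-FU in Tespa1-/- LSKs (SE 0.08, adjusted p = 0.0184). Between the genotypes after 5-FU it was at 160.1 ± 10.4 against 203 ± 39.0 CPM (SD, n = 3, adjusted p = 0.0915). Mycbp2, a ubiquitin ligase named for binding MYC, fell by 0.35 with 5-FU in Tespa1-/- (SE 0.04, adjusted p = 0.000482) and was 0.30 lower in Tespa1-/- than in Tespa1+/+ LSKs after 5-FU (SE 0.04, adjusted p = 0.0016). Hdac1, a deacetylase of the repressor complexes that MXD and MNT proteins recruit, fell by 0.44 in untreated Tespa1-/- LSKs (SE 0.10, adjusted p = 0.0369). With 5-FU in Tespa1+/+ LSKs, none of the 19 passed in edgeR, where 3 had an unadjusted p below 0.05, and 1 passed in DESeq2. Under offsets for length and GC content in edgeR, 3 were lower and none higher, beside 1360 lower of 17002 genes. Mxd3, an antagonist that is expressed in dividing cells, was at 8.40 ± 2.04 against 4.95 ± 0.901 CPM in Tespa1-/- and Tespa1+/+ after 5-FU (SD, n = 3, adjusted p = 0.0884), and overlaps Prelid1 on the opposite strand. Mlxip, the Mondo partner of MLX, did not pass in any comparison (log2 fold changes from -0.29 to -0.02 in the 4 comparisons of groups). The median over the 19 genes lay between -0.06 and -0.02 in these 4 comparisons.

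Genes that MYC is known to activate were followed as a list of 50, all of them tested. In untreated LSKs, where Myc itself was higher in Tespa1-/-, none of the 50 was higher in edgeR and 5 were lower in Tespa1-/-, or 10% called beside 5.23% of all genes (12 had an unadjusted p below 0.05, and DESeq2 called 2 higher and 5 lower). The 5 were Odc1 and Hk2, Ncl, Ddx21 and Ccnd2. Hk2 is also in the list of MLX and Mondo targets above, so it counts in both lists. Odc1, the first enzyme of polyamine synthesis, was at 113 ± 8.13 against 199.9 ± 29.5 CPM (SD, n = 3) and fell by 0.82 (SE 0.10, adjusted p = 0.0036). After 5-FU, 6 of the 50 were higher and 1 was lower in Tespa1-/-, or 14% called, close to the 13.1% of all genes. Tfrc, the transferrin receptor, which erythroid cells also hold at high levels, rose by 0.75 (SE 0.07, adjusted p = 0.000198) and Srm, spermidine synthase, by 0.44 (SE 0.08, adjusted p = 0.00755), whereas Ccnd2, cyclin D2, fell by 0.50 (SE 0.05, adjusted p = 0.000158). Ncl, a nucleolar protein of ribosome building, was at 2975 ± 39.6 CPM in untreated Tespa1+/+, 2757 ± 50.3 in untreated Tespa1-/-, 2536 ± 38.1 in treated Tespa1+/+ and 2806 ± 53.1 CPM in treated Tespa1-/- LSKs (SD, n = 3). It fell by 0.11 in untreated Tespa1-/- LSKs (adjusted p = 0.0246) and rose by 0.14 after 5-FU (adjusted p = 0.00332), contrasts that differed by 0.26 (SE 0.03, adjusted p = 0.000282). The genotype contrasts of Odc1 also differed (1.06, SE 0.16, adjusted p = 0.00181), with 0.24 after 5-FU (adjusted p = 0.171). The median of the 50 was 0.00 in untreated LSKs and 0.09 after 5-FU.

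With 5-FU, 10 of the 50 fell and none rose in Tespa1+/+ LSKs, or 20% called beside 7.95% of all genes (4.18% lower and 3.77% higher), with Ppan, a ribosome assembly factor, at -0.43 (SE 0.07, adjusted p = 0.00648) and Odc1 at -0.77 (SE 0.11, adjusted p = 0.00338), and DESeq2 called 18 lower and none higher, beside 1059 lower of 17002 genes. This count was 21 with offsets for length and GC content, beside 1360 lower of all genes, and under these offsets, of all genes called, 28.3% rather than 47.4% were higher (58.2% with plain library totals). In Tespa1-/- LSKs, 3 rose and 8 fell, or 22% called beside 19.4% of all genes: Tfrc rose by 0.89 (SE 0.05, adjusted p = 9.13e-06) and Hk2 by 0.48 (SE 0.06, adjusted p = 0.000849), while Ccnd2 fell by 0.65 (SE 0.04, adjusted p = 1.34e-05) and Dctpp1 by 0.52 (SE 0.13, adjusted p = 0.0208). Cdk4, a kinase of cell cycle entry, fell there by 0.27 (SE 0.06, adjusted p = 0.0113) and overlaps Tspan31 on the opposite strand. Ccnd2 was highest in untreated Tespa1+/+ (380.5 to 392.5 CPM) and lowest in treated Tespa1-/- LSKs (216.6 to 217.5 CPM), and no 2 of the 4 groups overlapped.

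Genes that MYC is known to repress were a list of 16, of which 14 were tested. Cdkn1a, the p21 inhibitor of cell division, was lower in Tespa1-/- LSKs at both states: it was at 144 to 163 against 58.0 to 61.0 CPM in untreated and at 84.1 to 95.2 against 45.5 to 52.3 CPM in treated LSKs. No library of one genotype reached the range of the other. It fell by 1.34 (SE 0.07, adjusted p = 3.31e-05) and by 0.86 (SE 0.09, adjusted p = 0.000274), contrasts that differed by 0.49 (SE 0.11, adjusted p = 0.02). In all, 1 of the 14 was higher and 5 were lower in untreated Tespa1-/- LSKs (of all genes, 1.64% were higher and 3.59% lower), with Gadd45b at -1.10 (SE 0.08, adjusted p = 0.000272) and Cebpa, a myeloid transcription factor, at 0.38 (SE 0.09, adjusted p = 0.0419). After 5-FU, where 7.34% of all genes were higher and 5.78% lower, 3 were higher, among them Gadd45a (0.78, SE 0.19, adjusted p = 0.0253) and Cebpd (0.73, SE 0.13, adjusted p = 0.00659, overlapping Spidr on the other strand), and 3 were lower, among them Klf6 (-0.52, SE 0.06, adjusted p = 0.00035). Cebpa, Cebpd and Gadd45a are also known from myeloid cells, and the treated Tespa1-/- libraries are those with the neutrophil transcripts. Cdkn1b, the p27 inhibitor, varied widely between libraries (for instance 75.2 ± 30.4 and 51.4 ± 26.3 CPM in untreated Tespa1+/+ and Tespa1-/-, SD, n = 3) and did not pass in any comparison, and Cdkn1c, the p57 inhibitor of quiescent stem cells, stayed at group means of 1.55 to 3.00 CPM without a call. The median of the 14 was -0.30 in untreated LSKs and -0.01 after 5-FU. With 5-FU, none rose and 4 fell in Tespa1+/+ (28.6% called beside 7.95% of all genes), with Gadd45b at -1.49 (SE 0.10, adjusted p = 3.36e-05). In Tespa1-/- 1 rose, Gadd45a (1.06, SE 0.17, adjusted p = 0.00255), and 4 fell (35.7% called beside 19.4% of all genes). Cdkn1a, Gadd45b and Klf6 are at the same time known as stress or rapid response genes. All 3 were lower in untreated Tespa1-/- LSKs and with 5-FU in either genotype, and Cdkn1a and Klf6 but not Gadd45b between the treated genotypes. Of the immediate-early list, which holds none of them, 17, 9, 16 and 14 of the 20 genes were lower, in the order of untreated genotypes, treated genotypes, 5-FU in Tespa1+/+ and 5-FU in Tespa1-/-, where 3.59%, 5.78%, 4.18% and 8.64% of all genes were lower, and none was higher in edgeR (14, 15, 18 and 19 of the 20 had an unadjusted p below 0.05, from the lowest count to the highest). DESeq2 likewise called no gene higher where a count of none is given for the immediate-early, MYC-repressed or MLX lists, except for 1 immediate-early gene after 5-FU.

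**Figure D4:**
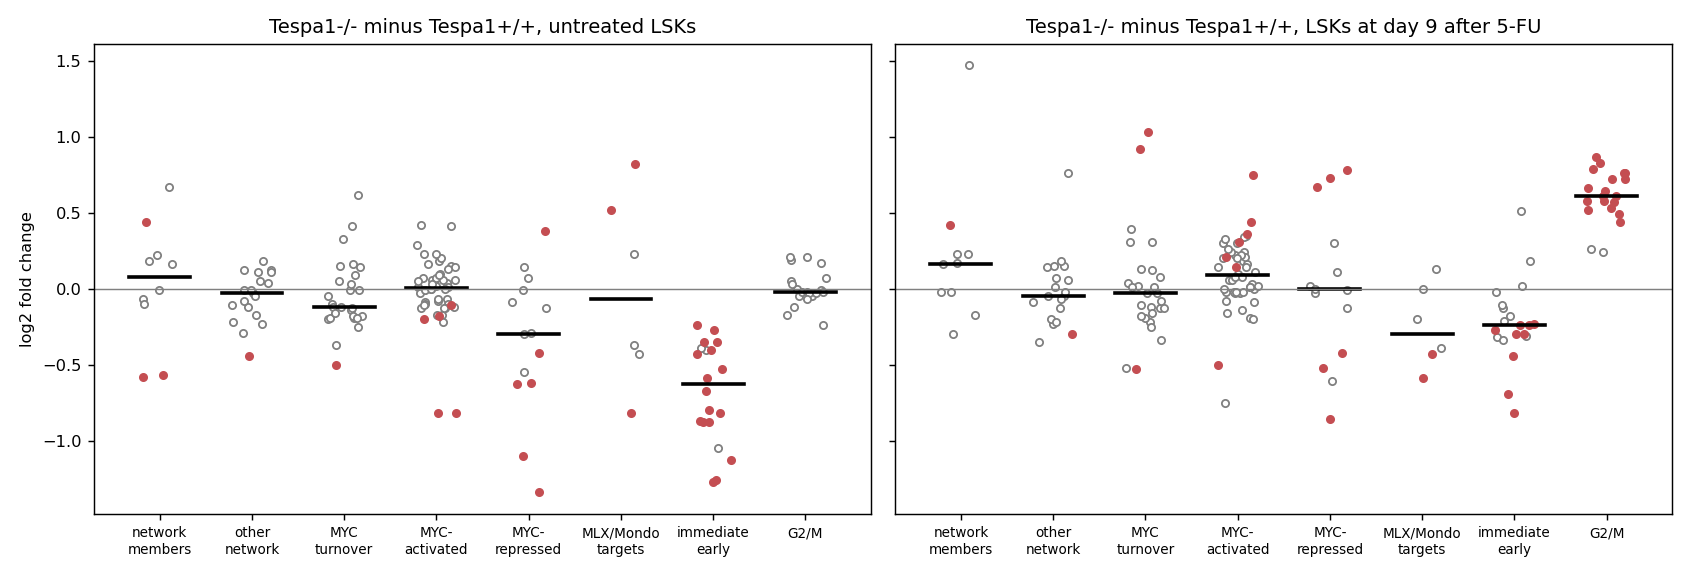
Log2 fold changes (y axis) of Tespa1-/- over Tespa1+/+ LSKs for each tested gene of the network, its turnover and target lists, and the immediate-early and G2/M lists (x axis), in untreated LSKs (left) and after 5-FU (right); filled points passed an adjusted p of 0.05 and bars are list medians. The G2/M median is -0.02 on the left and 0.61 on the right, and the immediate-early median -0.63 and -0.24.

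Lastly, the genes whose pattern over the 4 group means was most like that of the 3 network genes with the widest range, among those with a mean of at least 5 CPM (which leaves out Mycl), were looked up among 11201 genes, by the root mean square difference of centred log2 levels over the 4 groups. For Mycn they were B3gnt7 (0.0403), Socs2 (0.0804) and Gucy1a1 (0.0861). Mxd1 was most like Snapin (0.0126), Dclk2 (0.0308) and Lrp1 (0.0334), and Mnt most like Rmnd5b (0.0110), Smndc1 (0.0237) and Thrap3 (0.0245). With only 4 points per gene, such likeness is a description of these libraries.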

How the data were processed

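RNA-seq of sorted LSKs gave 12 libraries, made with a stranded poly-A kit and sequenced as read pairs. The authors deposited unnormalized read counts per gene for every library, in GRCm38 coordinates, with FPKM values beside them. The deposited FPKM values follow from the counts and a gene length (implied lengths of 8529 genes with 200 counts or more agreed between libraries to within 4.3e-06 of their value), and served only for that length and for their sums. Per the labels, CASAVA 1.8, HISAT2, StringTie and edgeR were used. How reads were counted, and whether by strand, is not given in the sources used here.

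Counts were tested in edgeR 4.0.16 (R 4.3.3): filterByExpr with a minimum count of 10, TMM, glmQLFit and glmQLFTest on the 6 libraries of each comparison, or on all 12 for the difference between genotype contrasts, with Benjamini-Hochberg adjustment over all genes and a threshold of 0.05. Log2 fold changes are those of the fit, with 95% intervals. Scripts were tested on simulated data. Genes set to differ there by 0.5 (log2) were recovered in 10.6% to 32.4% of cases in the 4 comparisons of groups. For the difference between genotype contrasts, this share was 1.82%. Genes set to differ by 1 were recovered in 66.7% to 79.6% and in 36.7% of cases. Of the genes called there, 8.3% to 11% in the 4 comparisons and 0% for the difference between contrasts had not been set to differ. Alternatives were DESeq2 1.42.0, other scalings and filters, a replicate block, fold thresholds of 1.5, each library left out and, chosen after seeing the data, offsets for gene length and GC content.

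Replicate libraries differed by more than sampling noise. Network genes, lists and comparisons were chosen with earlier results of these data known. Of each other list, the 2 largest rises and 2 largest falls past the threshold at a mean of 5 CPM or more were named per comparison, with 14 genes and Tespa1 named whatever they did. Likeness used log2(CPM + 0.5).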

Additional observations from a re-analysis of the deposited data

Results flagged for a closer look

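Mxd1 and Mnt stood out because the difference between the genotypes was itself different in untreated and treated LSKs, by edgeR's test of the interaction. For Mxd1 the genotype contrast after 5-FU exceeded that in untreated LSKs by 0.99 on the log2 scale (adjusted p = 0.00117), with all 3 Tespa1-/- libraries below the Tespa1+/+ libraries before treatment and all 3 above them after it. For Mnt it exceeded it by 0.41 (adjusted p = 0.0218), with the Tespa1-/- libraries below at both states. The Mnt call held in only 4 of 12 fits that each left out a library, while the Mxd1 call held in all 12. Tespa1 transcripts were left at a higher level in untreated than in treated Tespa1-/- LSKs (34.8 ± 0.242 against 19.3 ± 1.82 CPM, SD, n = 3), and the part of this in either result was not tested.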

How the results depend on the processing

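No contrast of a network gene that passed the test changed sign under any alternative run. With an added fold threshold of 1.5, the number of the 10 genes called fell to 0 between the genotypes after 5-FU and to 0 in untreated LSKs, to 1 (Mycn) for 5-FU in Tespa1+/+, to 0 for 5-FU in Tespa1-/- and to 1 (Mxd1) for the interaction. With an unadjusted p below 0.05 and the same fold, it was 0 in untreated LSKs, 1 for 5-FU in Tespa1+/+, 1 for 5-FU in Tespa1-/- (Mycn both times) and 1 for the interaction. Leaving out single libraries gave 0 to 1 genes after 5-FU, 1 to 3 in untreated LSKs, 1 to 2 for 5-FU in Tespa1+/+ and 1 to 2 for the interaction. Over all genes these fits gave 1519 to 1710 calls in place of 2261, 338 to 808 in place of 892, 783 to 1102 in place of 1352 and 573 to 862 in place of 936. DESeq2, the other scalings and filters and a fit of all 12 libraries kept each count within 1.5 times.

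The replicate numbers of the libraries did not pair them (correlations of deviations from -0.065 to 0.027), and the replicate block gave 1 gene for 5-FU in Tespa1+/+ (Mnt, with Mycn at adjusted p = 0.0502), 2 in untreated LSKs (without Myc, at 0.0808) and 4 for 5-FU in Tespa1-/- (with Mycn, at 0.0253). Over all genes the block gave 956, 454 and 2833 calls in these comparisons, in place of 1352, 892 and 3336. Block and length and GC offsets together gave 1 gene for 5-FU in Tespa1+/+ and 1 for the interaction. Of the 10 genes, 9 had at least 159 counts in every library, and depth limits mainly Mycl, with 6 to 106 counts.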
